A study of Mus musculus with 4 samples.

Results

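The 9 genes described here make up 3 paralogous miRNA loci of the mouse, each with a gene of the miR-99/miR-100 type first, a let-7 gene next and a miR-125 gene last. They are Mir99a, Mirlet7c-1 and Mir125b-2 (the Mir99a locus), Mir100, Mirlet7a-2 and Mir125b-1 (the Mir100 locus), and Mir99b, Mirlet7e and Mir125a (the Mir99b locus). Rows of the deposited table were chosen by matching their gene IDs to these 9 names, and all 9 were found among 643 miRNA genes and 2976 rows in all. The table comes from small RNA sequencing of 4 libraries, numbered 1 to 4 in the labels, which form 1 group. Every library came from CD1 embryos at stage E10.5 of the genotype Tbx18-Cre;CAG-tdTomato, and the labels describe all 4 as wild type. In this design Cre is driven by Tbx18, and the reporter gives a red fluorescent protein to cells in which Cre has acted and to their descendants. Tbx18-positive stroma cells from around the wolffian duct, the tube from which the ureteric bud and the male ducts arise, were collected by flow sorting. The labels do not name the gate, and if it was the reporter, a cell that no longer uses Tbx18 can be included. Whether each library had its own embryo or pool is not in the labels, so every spread and p-value below is that of these 4 libraries and may be technical. There is no second condition, and all comparisons are between genes within a library.

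MiRNAs are short RNAs cut from a hairpin precursor, and they hold back the messenger RNAs that pair with their seed, bases 2 to 8 of the mature strand. Let-7 and lin-4, the worm relative of miR-125, were found in Caenorhabditis elegans as timers of larval development, and in mammals let-7 is known for its low level in early embryonic cells and its higher level in differentiated cells. Maturation of let-7 precursors is known to be held back by the RNA-binding proteins Lin28a and Lin28b. MiR-99 and miR-100 are related to miR-10 and are known as regulators of mTOR signalling, a pathway of cell growth. The joint arrangement of the 3 types in 1 locus is conserved in animals, and a locus is commonly transcribed as 1 long host RNA.

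The mature 5′ strands are shown because the 3 positions differ in their seed while paralogs at a position share it, which limits how well reads of paralogs can be told apart. Sequences are from RefSeq (GRCm38.p6), 5′ to 3′, with the seed in capitals, and all 9 genes had a mature sequence of their miRNA there. For the miR-99/miR-100 position they are:
miR-99a-5p: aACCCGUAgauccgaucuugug
miR-100-5p: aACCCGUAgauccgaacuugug
miR-99b-5p: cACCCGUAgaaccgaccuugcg
For the let-7 position they are:
let-7c-5p: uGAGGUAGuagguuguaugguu
let-7a-5p: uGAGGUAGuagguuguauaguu
let-7e-5p: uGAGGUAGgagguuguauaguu
For the miR-125 position Mir125b-2 and Mir125b-1 give the same 5′ strand, and their 3′ strands are added because only those tell the 2 genes apart:
miR-125b-5p: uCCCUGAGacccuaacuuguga
miR-125a-5p: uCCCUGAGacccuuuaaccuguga
miR-125b-2-3p: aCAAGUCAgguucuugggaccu
miR-125b-1-3p: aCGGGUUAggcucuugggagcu

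With positions counted from 1 at the 5′ end, miR-99a and miR-100 differ by a single substitution, U16A. MiR-99a and miR-99b differ by 4, which are A1C, U11A, U16C and U21C. Let-7c and let-7a differ by G19A, let-7a and let-7e by U9G, and let-7c and let-7e by both U9G and G19A. MiR-125b-5p (22 nt) and miR-125a-5p (24 nt) share their first 13 bases. The 3′ strands of the Mir125b-2 and Mir125b-1 hairpins differ by 5 substitutions. The let-7a sequence was listed under Mirlet7a-1, not under Mirlet7a-2, and was found in the Mirlet7a-2 hairpin. The let-7c sequence was listed under both Mirlet7c-1 and Mirlet7c-2 and was found in the Mirlet7c-1 hairpin. Mirlet7a-1 on chromosome 13 yields the same let-7a strand as Mirlet7a-2, and Mirlet7c-2 on chromosome 15 the same let-7c strand as Mirlet7c-1.

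All 3 loci lie on the plus strand of GRCm38. The Mir99a locus occupies chr16:77598936-77646343, a span of 47408 bp, with Mir99a at 77598936 to 77599000, Mirlet7c-1 at 77599657 to 77599750 and Mir125b-2 at 77646273 to 77646343. In GENCODE vM21 all 3 genes lie within introns of the non-coding host gene Mir99ahg, Mir99a and Mirlet7c-1 also lie within an intron of Gm11146 on the other strand, and the last bases of Mir125b-2 overlap an exon of the transcript C130023A14Rik. The Mir100 locus occupies chr9:41531425-41582002, a span of 50578 bp, with Mir100 at 41531425 to 41531504, Mirlet7a-2 at 41536716 to 41536811 and Mir125b-1 at 41581926 to 41582002. Its 3 genes lie in introns of the non-coding gene named 3110039I08Rik in GENCODE and Mir100hg in RefSeq, Mir125b-1 also overlaps an exon of the sense transcript Gm28119, and Mir100 overlaps an exon of Gm48742 on the other strand. The Mir99b locus is compact, at chr17:17830188-17830879 and 692 bp in all, with Mir99b at 17830188 to 17830257, Mirlet7e at 17830352 to 17830444 and Mir125a at 17830812 to 17830879. These genes lie within the protein-coding gene Spaca6, Mir99b and Mirlet7e in an intron and Mir125a over an exon of a transcript, and Mirlet7e overlaps an annotated miRNA gene, Gm25927, on the other strand. The gap between the let-7 and the miR-125 gene is 46522 bp in the Mir99a locus and 45114 bp in the Mir100 locus, against 367 bp in the Mir99b locus.

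Levels are in the deposited TPM, a value per gene corrected for gene length and for library size. The rows of the table summed to between 23340 and 72205 TPM per library, so most of the scale lies in genes not analysed here. The miRNA genes summed to 42494, 65478, 61708 and 16399 TPM in libraries 1 to 4, so a level in TPM also moves with the part of the library taken by other RNAs, and shares of the miRNA total are given beside it. Recovered reads of miRNA genes numbered 883201, 1087240, 978210 and 146255 in libraries 1 to 4, so values of library 4 carry the largest counting error. Among marker miRNAs, the mesenchymal list (Mir199a-1, Mir199a-2, Mir199b and Mir214) took 3.12%, 1.92%, 1.39% and 0.779% of the miRNA total in libraries 1 to 4, with Mir199a-2 and Mir214 listed at 0. The neural list took 1.41%, 0.737%, 5.44% and 1.56%, the epithelial list 0.0707% to 0.265%, endothelial Mir126a 0.659% to 1.53%, the smooth muscle list 0.955% to 1.71%, the striated muscle list 0.198% to 1.37% and the blood cell list 0.00684% to 0.0334%, with Mir1a-2, Mir486 and Mir223 listed at 0. Of the markers fixed for these lists, 3 of the 11 neural genes had no row used here.

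The 9 genes together took 26.6%, 20.2%, 11.6% and 9.78% of the miRNA total in libraries 1 to 4. All 9 reached at least 1 TPM in all 4 libraries, against 33.1% of all miRNA genes. The share was highest in library 1 and lowest in library 4. Of the marker lists, only the mesenchymal one followed the same order of libraries, and endothelial Mir126a had the reverse order. The part that cell mixture played in this was not tested, and in bulk samples fewer cells of a type and less RNA per cell cannot be told apart. By locus the sum was 3512 ± 2306 TPM for the Mir99b locus, 3117 ± 2030.3 TPM for the Mir99a locus and 1705 ± 1119 TPM for the Mir100 locus (SD, n = 4).

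In the Mir99a locus, Mir99a was among the most abundant miRNAs of the table, and Mir125b-2 was the lowest of the 9 genes, at rank 140 by its mean among miRNA genes. Mir99a stood at 2569.8, 4843, 2655 and 394 TPM in libraries 1 to 4, ranks 2, 3, 4 and 10 among miRNA genes. Mirlet7c-1 stood at 1114, 529.7, 173 and 127 TPM in the same libraries, ranks 10, 27, 57 and 31. Mir125b-2 stood at 18.7, 29.0, 14.8 and 2.48 TPM, ranks 132, 123, 162 and 193. The order was Mir99a, Mirlet7c-1, Mir125b-2 in all 4 libraries, although over the libraries the ranges of Mir99a and Mirlet7c-1 overlapped. Mir125b-2 in library 4 rested on 19 recovered reads, with an exact 95% Poisson interval of 11.4 to 29.7 that covers counting error only, while its other libraries had 202 to 423 reads.

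In the Mir100 locus the 3 genes were closer together and their order was not the same in all libraries. Mir100 stood at 722, 824, 1357 and 104 TPM in libraries 1 to 4, ranks 15, 18, 9 and 39. Mirlet7a-2 stood at 812, 199.6, 91.3 and 57.1 TPM, and Mir125b-1 at 1432, 759, 381 and 79.5 TPM. Library 1 had the order Mir125b-1, Mirlet7a-2, Mir100, and libraries 2, 3 and 4 had the order Mir100, Mir125b-1, Mirlet7a-2. Mir100 was highest in library 3, whereas Mirlet7a-2 and Mir125b-1 were highest in library 1.

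In the Mir99b locus, Mir99b and Mir125a were both abundant and Mirlet7e was the lowest of the 3. Mir99b stood at 2387, 3971, 1856 and 483 TPM in libraries 1 to 4, ranks 3, 4, 6 and 5. Mir125a stood at 1903, 1830.4, 567 and 293 TPM, ranks 5, 8, 22 and 15. Mirlet7e stood at 343, 268, 81.4 and 63.3 TPM, ranks 34, 40, 79 and 50. The order Mir99b, Mir125a, Mirlet7e held in all 4 libraries.

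**Figure D1:**
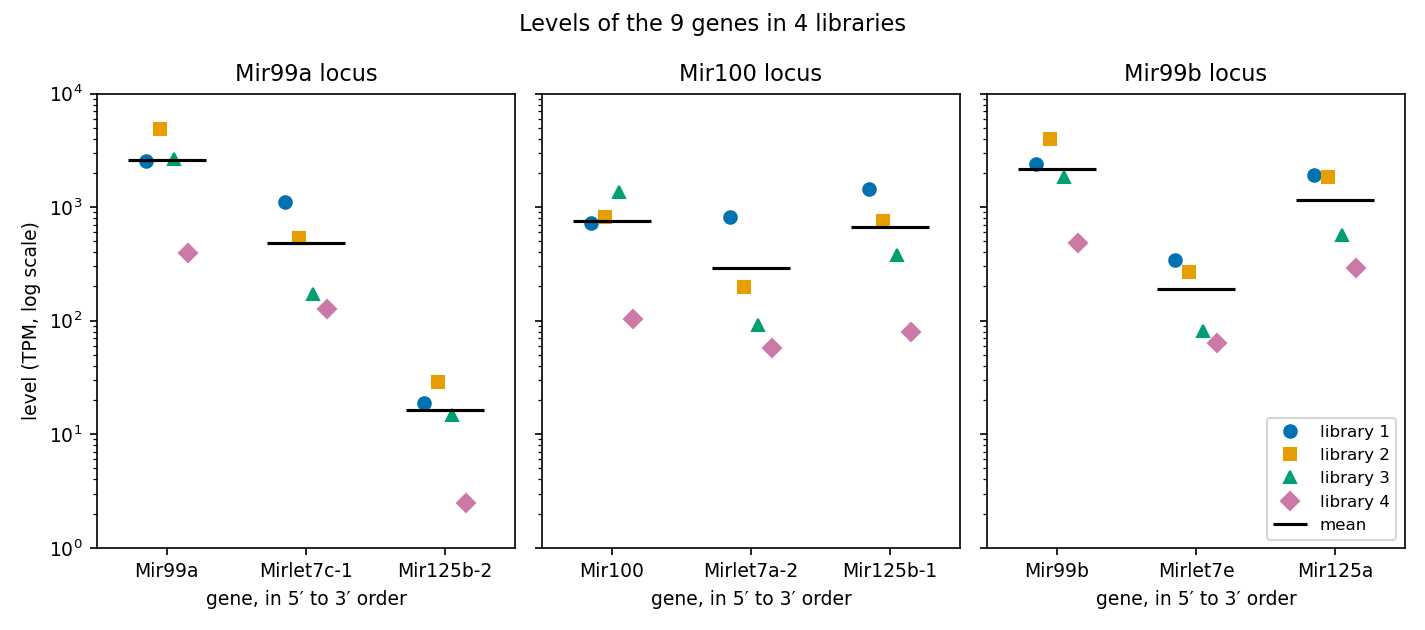
Level in TPM on a log axis of the 9 genes, in panels by locus, with 1 point per library and a bar at the mean of 4 libraries. Mir125b-2 lies between 2.48 and 29.0 TPM, below every other gene shown, and library 4 has the lowest value of all 9 genes.

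Over loci and libraries, the miR-99/miR-100 gene was the highest of its locus in 11 of 12 cases. The exception was the Mir100 locus in library 1. The full order miR-99/miR-100, miR-125, let-7 held in 7 of 12 cases, in the Mir99b locus in all 4 libraries and in the Mir100 locus in 3 of 4. In the Mir99a locus the let-7 gene was instead second in all 4 libraries, because Mir125b-2 was low. This depends on the split of miR-125b reads between its genes. With all copies of a mature miRNA summed for each member, the same miR-125b sum stands in both the Mir99a and the Mir100 locus. On those sums the full order held in 9 of 12 cases. The miR-99/miR-100 gene was then highest in 10. The 12 cases are 3 loci read in the same 4 libraries, so they are not independent, and no background share was computed for them.

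Ratios between genes of a locus were tested as log2 ratios of TPM + 1 within each library, with limma fitted over all 37128 pairs of miRNA genes with a mean of at least 1 TPM and Benjamini-Hochberg adjustment over all of them, and a pair was called at an adjusted p under 0.05. Of the 9 ratios within loci, 6 were called, against 72.5% of all pairs, 77.6% of pairs on 1 strand within 100 kb, and 65.9% of such pairs outside chromosome 12, which holds a very large miRNA cluster. The gene nearer the start of the locus was called higher in 4 of the 9, against 43.4% of near pairs called in that direction and 29.3% of those outside chromosome 12. Both counts are near a background, so neither is a result about these loci. All pairs share the same 4 libraries and many share a gene, so the calls are not independent. The exact two-sided sign-flip test over 4 libraries cannot give a p under 0.125, and it gave 0.125 for each of the 7 within-locus ratios with the same sign in all libraries, a pattern shown by 75.6% of all pairs.

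The miR-99/miR-100 gene was called higher than the let-7 gene in 2 of the 3 loci. Mir99b exceeded Mirlet7e by 6.96, 14.8, 22.8 and 7.63 times in TPM in libraries 1 to 4, with a mean log2 ratio of 3.52 ± 0.81 (SD, n = 4; adjusted p = 0.000281, limma). Mir99a exceeded Mirlet7c-1 by 2.31, 9.14, 15.3 and 3.11 times, with a mean log2 ratio of 2.49 ± 1.28 (SD, n = 4; adjusted p = 0.00466, limma). Both ratios were lowest in libraries 1 and 4 and highest in library 3. Mir100 stood at 0.889, 4.13, 14.9 and 1.82 times Mirlet7a-2 in the same libraries, with a mean log2 ratio of 1.65 ± 1.74 (SD, n = 4; adjusted p = 0.0572, limma). That ratio was below 1 in library 1, and without library 1 it was called, at a log2 ratio of 2.26 (adjusted p = 0.0225, limma). Without library 3 it was 0.91 (adjusted p = 0.197, limma).

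The miR-125 gene was called higher than the let-7 gene in 2 loci and lower in the Mir99a locus. Mir125a exceeded Mirlet7e by 5.55, 6.82, 6.97 and 4.63 times in libraries 1 to 4, with a mean log2 ratio of 2.55 ± 0.28 (SD, n = 4; adjusted p = 0.000541, limma). Mir125b-1 exceeded Mirlet7a-2 by 1.76, 3.80, 4.17 and 1.39 times, with a mean log2 ratio of 1.31 ± 0.79 (SD, n = 4; adjusted p = 0.0282, limma). That call was lost with reads not divided by gene length (adjusted p = 0.0980), with copies summed (0.148) and without library 2 (0.131) or library 3 (0.0992), by limma in each case. Mir125b-2 lay below Mirlet7c-1 with a mean log2 ratio of -4.66 ± 1.05 (SD, n = 4; adjusted p = 0.000123, limma), and with copies summed this ratio turned to 0.35. Mir99b exceeded Mir125a in all 4 libraries, by 1.25, 2.17, 3.27 and 1.65 times, without passing the threshold (mean log2 ratio 0.97 ± 0.59, SD, n = 4; adjusted p = 0.0625, limma). Mir100 stood at 0.504, 1.09, 3.57 and 1.31 times Mir125b-1, a mean log2 ratio of 0.34 ± 1.16 (SD, n = 4; adjusted p = 0.580, limma), which did not set them apart. Mir99a exceeded Mir125b-2 by 137 to 179 times, with a mean log2 ratio of 7.14 ± 0.27 (SD, n = 4; adjusted p = 1.23e-05, limma), or 2.11 with copies summed.

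**Figure D2:**
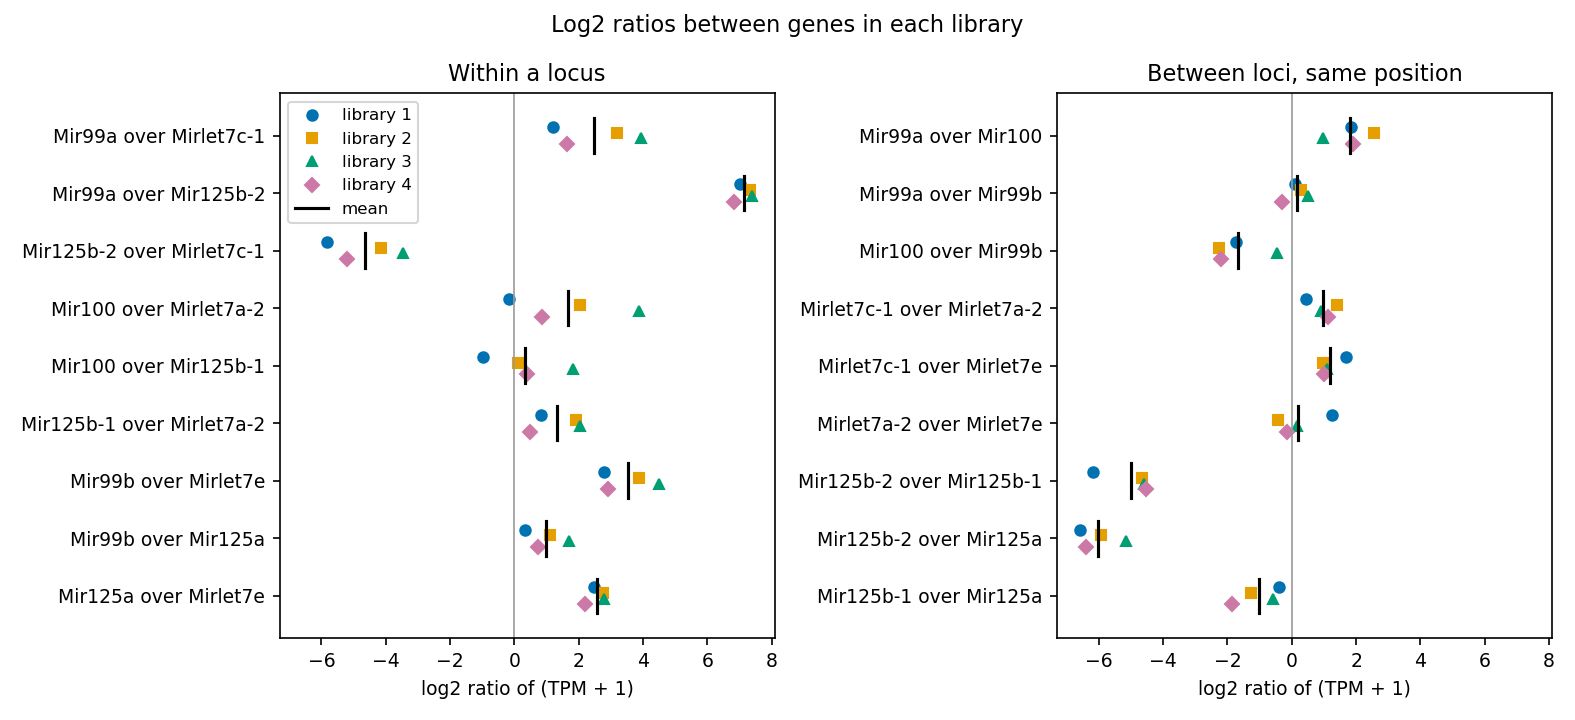
Log2 ratio of TPM + 1 for the 9 pairs of genes within a locus and the 9 pairs of paralogs at the same position, with 1 point per library and a bar at the mean. Mir100 over Mirlet7a-2 spans -0.17 to 3.88 over the libraries, while Mirlet7c-1 over Mirlet7e spans 0.98 to 1.70.

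At the miR-99/miR-100 position, Mir99a and Mir99b were not set apart and Mir100 was lower than both. Mir99a exceeded Mir100 by 3.56, 5.88, 1.96 and 3.79 times in libraries 1 to 4, with a mean log2 ratio of 1.82 ± 0.65 (SD, n = 4; adjusted p = 0.00539, limma). Mir100 stood at 0.303, 0.208, 0.731 and 0.215 times Mir99b, with a mean log2 ratio of -1.66 ± 0.84 (SD, n = 4; adjusted p = 0.0117, limma), a call that was lost without library 2 (adjusted p = 0.0633, limma). Mir99a and Mir99b did not differ beyond their spread, with a mean log2 ratio of 0.15 ± 0.34 and a range of -0.29 to 0.52 over libraries (adjusted p = 0.727, limma). Of the 9 ratios between paralogs at the same position, 6 were called, again near the 72.5% of all pairs. Of the same 9, 7 kept 1 sign over the 4 libraries, near the 75.6% of all pairs that did so.

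At the let-7 position, Mirlet7c-1 was the highest gene. It exceeded Mirlet7e by 3.25, 1.97, 2.13 and 2.00 times in libraries 1 to 4, with a mean log2 ratio of 1.19 ± 0.34 (SD, n = 4; adjusted p = 0.0221, limma), and the call was lost without library 1 (adjusted p = 0.0775, limma) or library 2 (0.0742). It exceeded Mirlet7a-2 by 1.37, 2.65, 1.90 and 2.22 times, with a mean log2 ratio of 0.98 ± 0.40 (SD, n = 4; adjusted p = 0.0485, limma). That call was lost on leaving out any library (adjusted p = 0.0556 to 0.205), with a pseudocount of 0.1 TPM (0.0639), with reads not divided by length (0.0727) and with copies summed (0.224), by limma in each case. Mirlet7a-2 and Mirlet7e were not set apart, at 2.37, 0.744, 1.12 and 0.902 times (mean log2 ratio 0.21 ± 0.73, SD, n = 4; adjusted p = 0.679, limma). Within the sum of these 3 let-7 genes, Mirlet7c-1 kept a nearly fixed part of 50.9% ± 1.72 (SD, n = 4).

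At the miR-125 position, Mir125a was highest and Mir125b-2 lowest in all 4 libraries. Mir125b-1 stood at 0.753, 0.414, 0.671 and 0.271 times Mir125a in libraries 1 to 4, with a mean log2 ratio of -1.03 ± 0.67 (SD, n = 4; adjusted p = 0.0566, limma). Mir125b-2 lay below Mir125b-1 with a mean log2 ratio of -4.99 ± 0.80 (SD, n = 4; adjusted p = 5.24e-05, limma) and below Mir125a with -6.02 ± 0.64 (adjusted p = 2.02e-05, limma). With copies summed the second of these was -0.99 (adjusted p = 0.0648, limma), and the first has no value because both genes then carry the same sum. Of the reads listed for the miR-125b genes together, Mir125b-1 held 98.8%, 96.6%, 96.5% and 97.2% in libraries 1 to 4. The sources used here do not say how reads that fit both genes were assigned, so the split is given as listed.

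The same limit holds for let-7. Mirlet7c-1 held 97.1% to 98.4% of the reads listed for the let-7c genes. Mirlet7a-2 held 90.2%, 89.8%, 84.5% and 44.6% of those listed for the let-7a genes in libraries 1 to 4. In library 4 Mirlet7a-2 had 591 reads against 734 for Mirlet7a-1. In libraries 1, 2 and 3 Mirlet7a-2 had 19946, 3939 and 1680 reads, against 2161, 445 and 307 for Mirlet7a-1, so the order of the genes was the reverse there.

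Whether a ratio between positions differed between loci was examined as the difference of 2 log2 ratios in each library, for 9 differences. The Mir99b locus had a larger ratio of its first to its second gene than the Mir99a locus. The difference (Mir99a/Mirlet7c-1 minus Mir99b/Mirlet7e) was -1.59, -0.69, -0.57 and -1.28 in libraries 1 to 4. The Mir99b locus also had a larger such ratio than the Mir100 locus, with a difference (Mir100/Mirlet7a-2 minus Mir99b/Mirlet7e) of -2.97, -1.84, -0.62 and -2.06. The Mir99a locus had a larger such ratio than the Mir100 locus (Mir99a/Mirlet7c-1 minus Mir100/Mirlet7a-2), by 1.38, 1.15, 0.05 and 0.78, so hardly larger in library 3. With reads not divided by length the mean of this difference was 0.57. The sign was then no longer the same in all libraries (exact sign-flip p = 0.25). Between the miR-125 and the let-7 gene the Mir100 and Mir99b loci differed by -1.65, -0.84, -0.74 and -1.72 (Mir125b-1/Mirlet7a-2 minus Mir125a/Mirlet7e). In TPM each of these differences had the same sign in 4 of 4 libraries, and the exact two-sided sign-flip permutation test gave p = 0.125 for each, the smallest that 4 libraries allow (0.141 adjusted over the 9). In all, 8 of the 9 differences kept 1 sign over the 4 libraries. The 9 are built from the same genes and libraries and some follow from others, so they are not independent. No background share was computed for such differences. The 4 that involve Mir125b-2 had means of 6.81, 6.18, -5.97 and -7.21, and 1.82, 1.14, -0.58 and -2.20 with copies summed, where the one of -0.58 no longer kept 1 sign (exact p = 0.25). The remaining one, Mir100/Mir125b-1 minus Mir99b/Mir125a, was below 0 in 3 libraries (mean -0.63 ± 0.65, SD, n = 4; exact p = 0.25).

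Apart from Mir125b-2, the parts taken by the genes of the 3 loci followed similar orders of libraries. The parts of a locus add up to its whole, and the loci were read in the same 4 libraries. The orders below are therefore not independent, and no background was computed for them. The miR-99/miR-100 gene took 69.4%, 89.7%, 93.4% and 75.3% of its locus sum for Mir99a in libraries 1 to 4. For Mir100 its part was 24.3%, 46.2%, 74.2% and 43.2%, and for Mir99b 51.5%, 65.4%, 74.1% and 57.5%. In each of the 3 loci the order of libraries was thus 3, 2, 4, 1. The let-7 gene took 30.1%, 9.81%, 6.10% and 24.2% for Mirlet7c-1, then 27.4%, 11.2%, 4.99% and 23.7% for Mirlet7a-2, and 7.40%, 4.42%, 3.25% and 7.54% for Mirlet7e. In all 3 loci this part was lowest in library 3 and next lowest in library 2. Mir125b-1 took 48.3%, 42.6%, 20.8% and 33.1% and Mir125a 41.1%, 30.2%, 22.6% and 34.9%, both highest in library 1 and lowest in library 3. Mir125b-2 differed, with 0.506%, 0.537%, 0.522% and 0.475%. Library 3 also had the highest part of neural markers, at 5.44% of the miRNA total. Library 2, next to it in the order of the miR-99/miR-100 part, had the lowest, at 0.737%. The blood cell list and the miR-10 sum were highest in library 3 as well. Whether any of these played a part was not tested.

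**Figure D3:**
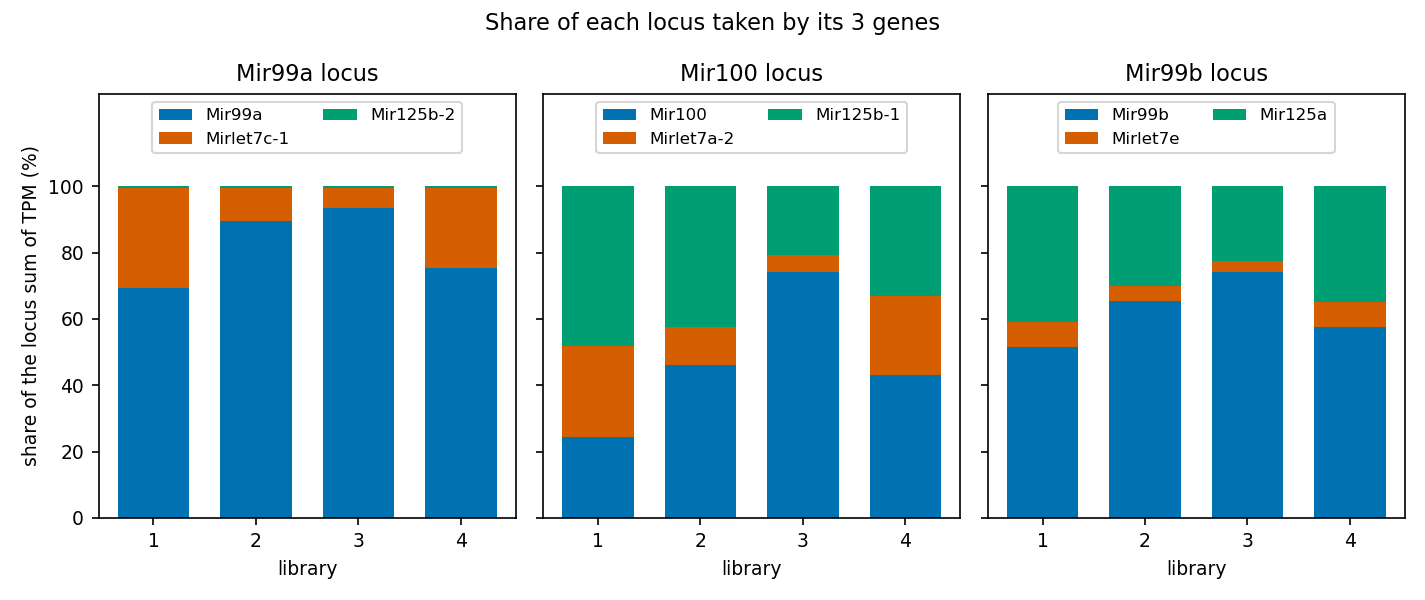
Share of the summed TPM of each locus taken by its 3 genes, as stacked bars for libraries 1 to 4. The blue part, the miR-99/miR-100 gene, is smallest in library 1 and largest in library 3 in every panel, at 24.3% and 74.2% for Mir100.

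How tightly 2 genes moved together can be read from the SD of their log2 ratio over the libraries. The median SD was 0.65 for the 9 pairs at the same position (0.34 to 0.84), 0.81 for the 9 pairs within a locus (0.27 to 1.74) and 0.88 for the 18 pairs that shared neither, against 0.92 over all pairs of miRNA genes. The tightest pairs at the same position were Mir99a and Mir99b at 0.34 and Mirlet7c-1 and Mirlet7e at 0.34, which lie on different chromosomes. Within loci the tightest were Mir99a and Mir125b-2 at 0.27 and Mirlet7e and Mir125a at 0.28, and the loosest was Mir100 and Mirlet7a-2 at 1.74. Mir125b-2 and Mir99b, which share neither locus nor position, had an SD of 0.11. SDs with Mir125b-2 depend on the pseudocount, because of its low level in library 4: with none, an alternative chosen after seeing the data, the SD was 0.30 for Mir125b-2 and Mir99b and 0.16 for Mir99a and Mir125b-2. These values describe the 4 libraries, in which all pairs share the same samples, and the difference between the medians was not tested. Without library 1, 2, 3 or 4 in turn, the median for pairs at the same position was 0.42, 0.73, 0.41 and 0.71. For pairs within a locus it was 0.87, 0.95, 0.73 and 0.86.

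Summed over the 3 loci, the miR-99/miR-100 genes made up 13.4%, 14.7%, 9.51% and 5.98% of all miRNA TPM, by library from 1 to 4. The 3 miR-125 genes took 7.89%, 4.00%, 1.56% and 2.29%. The 3 let-7 genes took 5.34%, 1.52%, 0.561% and 1.51%, and were 3.50 times as high in library 1 as in the next library. The same library was highest for let-7 genes elsewhere in the genome: the 9 other let-7 genes took 3.93%, 0.495%, 0.319% and 0.977%. In TPM all 12 let-7 genes had their highest value in library 1, against 15.4% of miRNA genes with a mean of at least 1 TPM. As a share of the miRNA total 11 of 12 did so, against 28.9%, the exception being Mirlet7a-1, which was highest in library 4. None of the 3 miR-99/miR-100 genes and 2 of the 3 miR-125 genes, Mir125b-1 and Mir125a, were highest in library 1 by either measure. Genes of 1 family share much of their sequence, so they are not independent observations of a library.

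**Figure D4:**
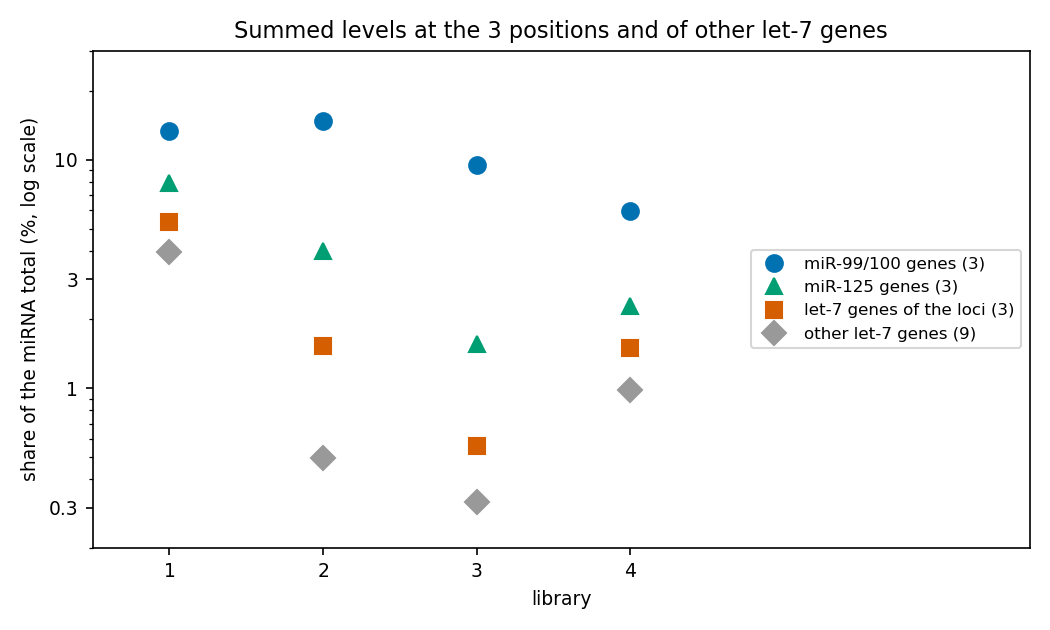
Share of the miRNA total on a log axis, in libraries 1 to 4, for the sums of the 3 genes at each position and of the 9 other let-7 genes. The let-7 sums lie between 5.34% and 0.561% for the loci and between 3.93% and 0.319% for the other genes, while the miR-99/miR-100 sum stays between 5.98% and 14.7%.

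The 3 let-7 genes of these loci held 57.6%, 75.5%, 63.8% and 60.7% of the TPM of all 12 let-7 genes in libraries 1 to 4. Among the other let-7 genes all 9 reached 1 TPM in all libraries, and the highest were Mirlet7f-2 at 178 ± 226 TPM and Mirlet7g at 148 ± 180 TPM (SD, n = 4). The miR-10 genes have the seed ACCCUGU, against ACCCGUA for miR-99/miR-100. Mir10a and Mir10b together took 11.3%, 24.2%, 31.2% and 22.5% of the miRNA total and were lowest in library 1. The host RNAs were at very low listed levels. Mir99ahg stood at 0.00869, 0.00309, 0.00331 and 0.0648 TPM, and Mir100hg was listed at 0 in all libraries. Spaca6 was not analysed here, and the small RNA libraries do not measure long host RNAs as such.

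The spread between libraries was wider for each let-7 member than for each miR-99/miR-100 member, a difference that was not tested. As shares of the miRNA total, the coefficient of variation over 4 libraries was 91.8% for Mirlet7c-1, 122% for Mirlet7a-2 and 64.3% for Mirlet7e, against 43.0%, 45.9% and 37.7% for Mir99a, Mir100 and Mir99b. For Mir125b-2, Mir125b-1 and Mir125a it was 45.9%, 95.2% and 61.2%. The median over the 9 genes was 61.2%, and over 273 miRNA genes with a mean of at least 1 TPM it was 41.5%. Means of let-7 members rest strongly on library 1: without it the mean was 277 against 486 TPM for Mirlet7c-1, 116 against 290.1 TPM for Mirlet7a-2 and 138 against 189 TPM for Mirlet7e. For Mir125b-1 it was 406 against 663 TPM.

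Genes with the most similar pattern over the 4 libraries were sought among 161 other miRNA genes with a mean of at least 10 TPM, by the root mean square difference of log2(TPM + 1) after centring each gene over the libraries. Nearest to the miR-99/miR-100 sum were Mir708, Mir103-2 and Mir107, at 0.13, 0.17 and 0.25, against a median of 0.70 over the 161. Nearest to the let-7 sum were Mirlet7c-2, Mirlet7f-2 and Mir98, all let-7 family genes, at 0.24, 0.48 and 0.49, against a median of 1.16. Mirlet7c-2 yields the same let-7c strand as the member Mirlet7c-1, and how their shared reads were assigned is not known. The nearness of Mirlet7c-2 is therefore not an independent observation. Mirlet7f-2 and Mir98 lie close together on chromosome X, with starts at 151912346 and 151913214, so they may not be independent of each other either. Nearest to the miR-125 sum were Mir329, Mir501 and Mir337, at 0.34, 0.35 and 0.42, against a median of 0.94. Mir329 and Mir337 are both on chromosome 12. The let-7 and miR-125 sums differed from each other by 0.43, with 1 other gene nearer to let-7 and 3 nearer to miR-125. The miR-99/miR-100 and let-7 sums of the same loci differed by 1.08, above the median distance of other genes from the miR-99/miR-100 sum (0.70) and below that from the let-7 sum (1.16).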

How the data were processed

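Small RNA was sequenced in 4 libraries of sorted cells. Sorted cells went straight into QIAzol and their total RNA into a NEBNext small RNA kit, per the labels' protocols. The deposited values are TPM per Entrez gene. The submitters' processing notes name the build mm10 (GRCm38) and the tool limma. The aligner, counter, annotation and rule for multiply matching reads were not given in the sources used here. Library preparation favours some miRNA ends over others, so levels of different miRNAs are relative, and rows are hairpin genes, not arms.

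Rows were joined by gene ID to RefSeq GRCm38.p6 (2541 of 2976 rows). After multiplying by gene length, 100% of miRNA values in each library were whole steps of a single unit (tolerance 0.01), which gave recovered reads. They served for depth and as an alternative, and no count model was fitted. The members, lists and tests were chosen with earlier results of these data known. Named genes are the members, genes with the same mature miRNA, the 2 highest other let-7 genes, the miR-10 genes, host genes and the 3 nearest patterns per position. Log2 ratios used a pseudocount of 1 TPM, which understates differences of low genes. Pairs were fitted with limma 3.58.1 (R 4.3.3), an intercept only, after a test on simulated data. Other steps ran in Python 3.11.15 with numpy 2.4.6, pandas 2.3.3, matplotlib 3.10.9 and scipy 1.17.1. Alternatives covered the pseudocount (0.1 and 10 TPM), the filter on low values (none, 10 TPM), gene length, copies, scaling and each library left out.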

Additional observations from a re-analysis of the deposited data

Results flagged for a closer look

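For 45 sets of 4 library values, the gap between an extreme value and its neighbour was divided by the whole range and set against the 95% limit of Dixon's test. Chance passes that limit in about 1 in 20 sets, and 3 sets passed it, each for library 1. The share of Mirlet7a-2 in the miRNA total was 1.91%, 0.305%, 0.148% and 0.348% in libraries 1 to 4 (ratio of gap to range 0.886). The log2 ratio of Mirlet7c-1 over Mirlet7e was 1.70, 0.98, 1.08 and 0.99 (0.856). The log2 ratio of Mir125b-2 over Mir125b-1 was -6.18, -4.66, -4.59 and -4.53 (0.920).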

How the results depend on the processing

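No paired analysis was possible because there is 1 group. Of the 9 within-locus ratios, 6 were called, and 5 to 7 on leaving out each library in turn, 7 with no filter or a pseudocount of 10 TPM, 5 with reads not divided by length and 4 with copies summed. Of the 9 ratios at the same position, 6 were called, but 3 with copies summed and 3 to 5 on leaving out each library, and 5 to 7 under the others. With copies summed, Mir125b-2 over Mir125b-1 has no value, and Mir125b-2 and Mir125b-1 have the same ratio to Mir125a. That count is therefore not out of 9 separate ratios. The percentage of all pairs called was 72.5%, and 63.8% to 72.9% over the alternatives. Directions turned in 3 ratios. Mir125b-2 over Mirlet7c-1 was 0.35 with copies summed. Mir100 over Mir125b-1 was -0.16 to 0.78 on leaving out each library, below 0 without library 3, and Mirlet7a-2 over Mirlet7e was -0.14 to 0.42, below 0 without library 1. For both the causes were not tested, and neither was called. Mir99b over Mir125a and Mir125b-1 over Mir125a were called with a pseudocount of 10 TPM (adjusted p = 0.032 and 0.031, limma). Rescaling miRNA sums changed no call among the 18 ratios. It could hardly do so, because a common factor cancels in a ratio within a library, apart from the pseudocount. Differences between loci had the same sign in all libraries in 7 to 9 of 9 cases under every alternative run. Depth limits Mir125b-2 in library 4, at 19 reads.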
